A study of Mus musculus with 24 samples.

Results

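Mouse embryonic stem cells lacking AGO2 were compared between day 2 and day 1 of a protocol that directs them towards extraembryonic endoderm (XEN) cells. The libraries were chosen by their labels for genotype and day, which gave 2 libraries of AGO2 knock out (KO) cells at day 2 and 2 at day 1, 4 of the 24 samples of the series. All genes were considered, and 17694 of the 30590 listed genes passed the filter on low counts and were tested. KO and wild-type (WT) cells had a 129/Ola background, and the WT libraries are named for E14, a widely used mouse stem cell line. Both had been kept with leukaemia inhibitory factor (LIF) as stem cells. They were then plated on gelatin in RPMI medium with 15% serum, 0.1 µM all-trans retinoic acid and 10 ng/mL activin A for a protocol of 5 days, and the 4 WT libraries of days 2 and 1 were set beside the KO step. The titles number the replicates KO1 and KO2 without saying whether these are separate clones or cultures, and the labels do not say how Ago2 was disrupted. The p-values therefore measure the spread between these libraries, which may be technical. In bulk RNA, fewer cells of a type and less RNA per cell cannot be told apart.

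XEN cells are the cultured counterpart of primitive endoderm, the layer of the late blastocyst that GATA4, GATA6, SOX17 and SOX7 specify and that forms the parietal and visceral endoderm of the yolk sac. Retinoic acid acts through nuclear receptors that bind DNA, and activin A acts through receptor kinases and SMAD proteins. Withdrawal of LIF lets the network around POU5F1, SOX2 and NANOG decay. AGO2 is the Argonaute protein that carries microRNAs to their targets and can also cleave RNA.

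Total counts were 22505644 and 23641671 for the KO day 2 libraries and 25954555 and 23604078 for the KO day 1 libraries, and the 16 libraries of days 1 to 4 in both genotypes spanned 10601574 to 27147835. Levels are given as CPM, counts scaled to the library size. Ago2 itself (chr15:73095844-73184935, mm10, minus strand) stood at 56.1 and 84.6 CPM in KO day 2 libraries, against 43.4 and 33.8 CPM in KO day 1 libraries. WT cells held 272 and 201 CPM at day 2, against 332 and 414 CPM at day 1. Every KO library was below every WT library, and within KO both day 2 libraries were above both day 1 libraries (log2 fold change 0.87 ± 0.29, adjusted p = 0.0285, SE, edgeR quasi-likelihood test). That rise was a call lost without KO day 1 replicate 1 (1.00), KO day 1 replicate 2 (0.69) or KO day 2 replicate 2 (0.51) and with the transcript length correction (-0.07). The genotype difference in the change of Ago2 was 1.53 ± 0.41, adjusted p = 0.113. The counts cover the gene as a whole, so the part of the transcript they come from is not known. Reads of overlapping genes, of antisense partners and of near-identical gene copies could be split or shared, since the libraries are labelled reverse-stranded but the strand setting of the counting is not given in the sources used here.

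The KO day 1 libraries differed from the KO day 2 libraries in how levels followed transcript length. Genes were divided into 5 equal groups by the length of their longest annotated transcript, and each library's log2 CPM was set against the mean of the 16 libraries. In the group of shortest transcripts the median deviation was 0.07 and -0.04 in the KO day 2 libraries, against 0.41 and 0.76 in the KO day 1 libraries. In that of longest transcripts it was -0.07 and 0.09 at day 2, against -0.38 and -0.73 at day 1. Of the 16 libraries, replicate 2 of KO day 1 deviated most in both groups. The KO day 4 libraries deviated the other way, by -0.34 and -0.35 in the shortest group and 0.27 and 0.38 in the longest. In the WT libraries of days 1 and 2 the values lay between -0.20 and 0.20, and over all WT days between -0.21 and 0.26. Accordingly the median log2 fold change of day 2 over day 1 in KO ran from -0.61 in the shortest group through -0.19, 0.01 and 0.21 to 0.58 in the longest, whereas in WT it stayed between -0.01 and 0.02. Genes that rose in KO had a median longest transcript of 4472 bases and genes that fell of 1976 bases, beside 3037 bases for all genes tested. In WT these medians were 3185 and 3189 bases. What the trend comes from was not tested. A correction for transcript length moved 30 of 86 list counts, 1 in each direction for 43 gene lists, by over 1.5 times. For a list, the counts with the correction or without 1 library are printed where the number that rose or fell differs by over 1.5 times and the larger number is at least 2. For a gene picked by the rule for named genes, given below, its log2 fold change is printed where its call was lost. Calls of genes named after their values were seen were not followed gene by gene. For those, the lack of a printed loss does not mean that the call held.

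**Figure D1:**
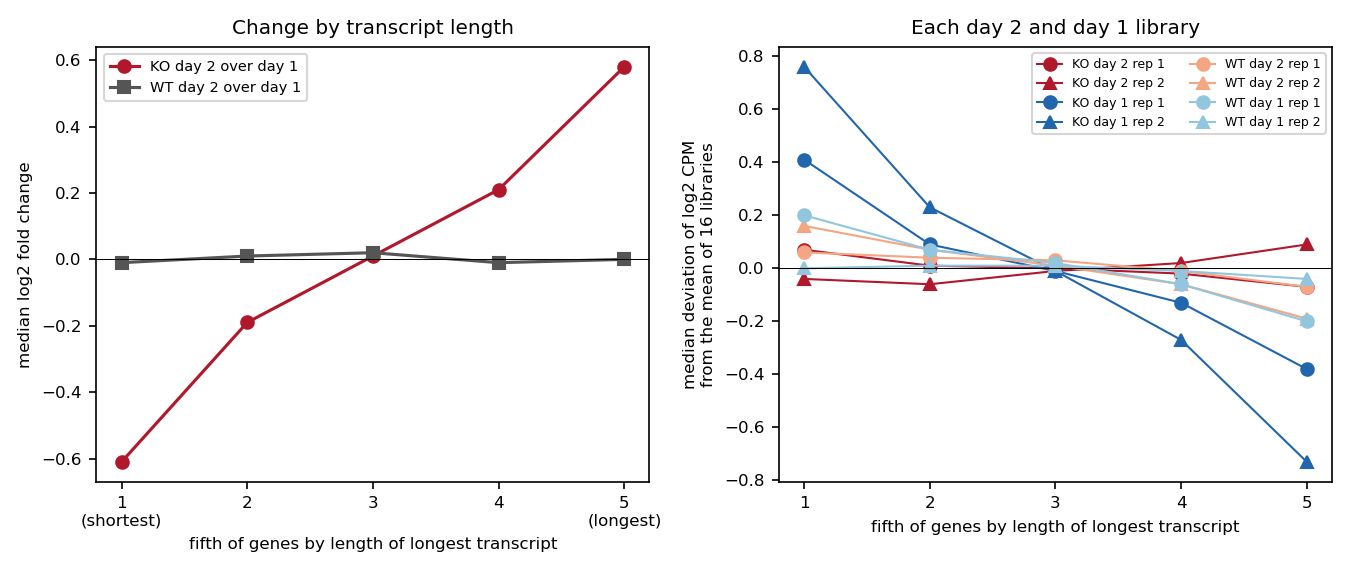
Left, median log2 fold change of day 2 over day 1 (vertical axis) in 5 groups of genes by longest transcript (horizontal axis) for KO and WT. Right, median deviation of log2 CPM from the mean of 16 libraries in the same groups for each KO and WT library. The KO change runs from -0.61 to 0.58 and the KO day 1 libraries slope most, while the WT change stays near 0.

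Between day 1 and day 2 of the KO course the transcriptome moved widely, with endoderm, mesenchymal matrix, Hox and imprinted genes among those that rose and naive pluripotency genes among those that fell. At an adjusted p below 0.05, 7612 of 17694 genes were called (43.0%), of which 4058 rose (22.9%) and 3554 fell (20.1%). At least 2-fold changes were called for 2413 genes that rose (13.6%) and 1622 that fell (9.17%). The median log2 fold change of all genes was 0.03. The number of calls was 4233 without KO day 1 replicate 2 and 3802 without KO day 2 replicate 2. With the transcript length correction it was 6538, 3117 higher and 3421 lower, and 5278 of the 7612 genes were among them (69.3%). Along the first principal component of the 16 libraries, with 60.8% of the variance, KO day 2 lay at -34.1 and -10.7 and KO day 1 at -118 and -131, beside WT day 2 at -33.8 and -26.3 and WT day 1 at -103 and -91.8. Day 2 libraries of both genotypes thus lay on the same side of their day 1 libraries, and the KO step was the longer by these coordinates. The coordinates carry no correction for transcript length, and the part of the length trend in them was not tested.

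The same step in WT cells, measured in other libraries, gave 3761 calls (21.3%), of which 2236 rose (12.6%) and 1525 fell (8.62%). Leaving out replicate 1 or replicate 2 of WT day 2 gave 2292 and 1259 calls, and leaving out either of WT day 1, in the same order, gave 1487 and 1977. In fits of only the groups compared there were 7517 calls in KO and 6351 in WT. The gap between the genotypes' counts thus depends on the fit. WT counts of the lists below are to be read against the WT shares of 12.6% that rose and 8.62% that fell. A smaller count in WT is not by itself a genotype difference. Of the 43 lists, only the 2-cell-like list held genes called in the genotype difference. A rise was called in KO and in WT alike for 1630 genes, 40.2% of those in KO and 72.9% of those in WT. A fall was called in both for 1074 genes, 30.2% of those in KO and 70.4% of those in WT. Calls in opposite directions numbered 4 in each sense. Of the 7612 genes called in KO, 6517 (85.6%) changed with the same sign in WT, where their median absolute log2 fold change was 0.52 beside 1.05 in KO. Over all genes tested the median absolute change was 0.61 in KO and 0.39 in WT with the same median standard error of 0.25, and the changes correlated with Pearson's r of 0.68 over 17694 genes, which are not independent replicates.

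**Figure D2:**
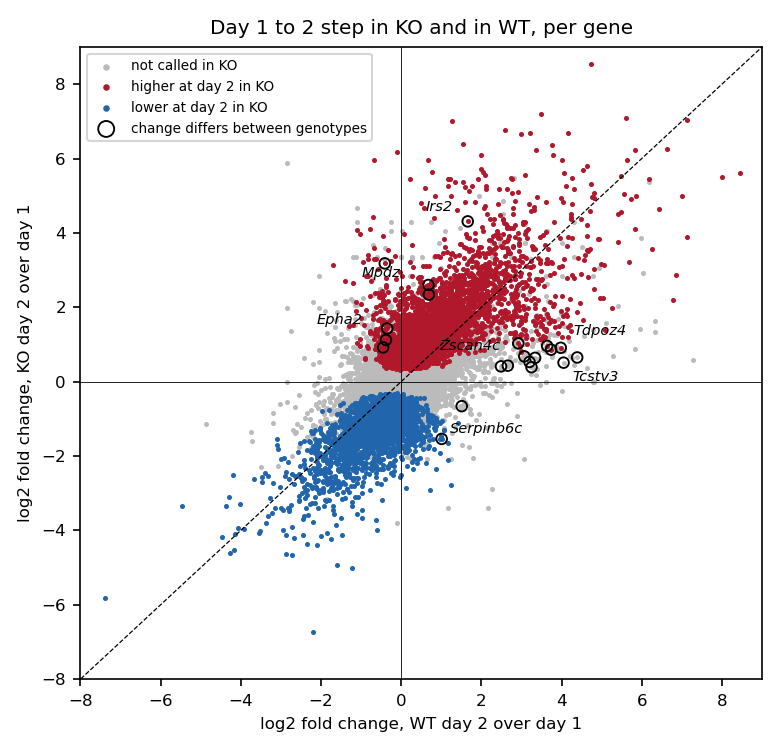
Log2 fold change of day 2 over day 1 per gene in KO (vertical axis) and WT (horizontal axis), with 17694 genes as points, genes called in KO in red and blue, and the 21 genes whose change differs between genotypes circled. The dashed line marks equal change, and most genes called in KO lie on the same side of 0 in WT.

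Genes of primitive endoderm were higher at day 2. Of the list of primitive endoderm and XEN genes, 17 of 22 tested members rose and 1 fell, with a median log2 fold change of 1.84. Dab2, an endocytic adaptor of endoderm, stood at 77.7 and 92.8 CPM in KO day 2 libraries, against 10.5 and 7.78 CPM in KO day 1 libraries (log2 fold change 3.22 ± 0.24, adjusted p = 3.97e-06). Foxa2, a forkhead factor of endoderm, stood at 10.9 and 11.7 CPM at day 2, against 0.425 and 0.414 CPM at day 1 (log2 fold change 4.73 ± 0.47, adjusted p = 1.86e-05). Both genes were many-fold higher in each day 2 library than in either day 1 library. Col4a2, a chain of basement membrane collagen, had 37.1 and 52.8 CPM at day 2, against 8.54 and 5.99 CPM at day 1 (log2 fold change 2.62 ± 0.26, adjusted p = 1.69e-05). Serpinh1, the collagen chaperone, had 657 and 684 CPM at day 2, against 175 and 197 CPM at day 1 (log2 fold change 1.85 ± 0.17, adjusted p = 9.31e-06). Among the transcription factors, Sox17 rose by 2.88 ± 0.59 on the log2 scale and Sox7 by 2.43 ± 0.36, both from a day 1 level under 1 CPM. Gata4 had 8.85 and 9.58 CPM at day 2, against 4.18 and 2.86 CPM at day 1 (1.38 ± 0.24, adjusted p = 6.58e-04). Gata6 had 3.37 and 5.77 CPM at day 2, against 2.51 and 1.57 CPM at day 1, a separation of the libraries that did not pass the test (1.15 ± 0.47, adjusted p = 0.0662). Pdgfra, the receptor that marks primitive endoderm, had 6.32 and 9.22 CPM at day 2, against 3.05 and 1.24 CPM at day 1 (1.83 ± 0.40, adjusted p = 0.00292). Lrpap1, the receptor-associated chaperone of the LDL receptor family, was the only member that fell (-0.45), and it is named after its values were seen. Its call was lost without KO day 1 replicate 2 and without KO day 2 replicate 2. It was also lost with the replicate block and in the fit of only the groups compared. In WT, primitive endoderm and XEN had 20 genes that rose and 0 that fell (median 1.55).

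Parietal endoderm, which deposits Reichert's membrane, was marked by 15 genes. Of these, 8 of 15 tested members rose and 0 fell, with a median log2 fold change of 1.04. For parietal endoderm, the number that rose and that fell was 5 and 0 without KO day 2 replicate 2. Tmprss2, a membrane serine protease, had 4.11 and 4.49 CPM at day 2, against 0.232 and 0.276 CPM at day 1 (log2 fold change 4.06 ± 0.46, adjusted p = 4.07e-05). Plat, which encodes tissue plasminogen activator, rose by 2.42 ± 0.45, Fbn1, which encodes fibrillin, by 2.19 ± 0.40, and Pdpn, which encodes podoplanin, by 1.23 ± 0.19, with no overlap between the days in any of the 3. In WT, parietal endoderm had 5 genes that rose and 0 that fell (median 1.17).

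Most visceral endoderm genes were not called. Of this list, 7 of 20 tested members rose and 2 fell, with a median log2 fold change of 0.18. Over all genes tested the shares were 22.9% that rose and 20.1% that fell. For visceral endoderm and cubilin complex, the number that rose and that fell was 4 and 1 without KO day 1 replicate 2, 7 and 1 without KO day 2 replicate 1 and 5 and 1 without KO day 2 replicate 2. The 2 large receptors of the absorptive endoderm rose. Lrp2, which encodes megalin, stood at 375 and 601 CPM in KO day 2 libraries, against 99.4 and 93.1 CPM in KO day 1 libraries (log2 fold change 2.34 ± 0.27, adjusted p = 4.86e-05). Its partner Cubn, which encodes cubilin, stood at 4.57 and 5.57 CPM at day 2, against 0.735 and 0.829 CPM at day 1 (log2 fold change 2.69 ± 0.45, adjusted p = 6.06e-04), far below WT cells with 130.1 and 115 CPM at day 2, against 30.3 and 56.6 CPM at day 1. Dkk1, a secreted inhibitor of WNT signalling, had 1.74 and 2.41 CPM at day 2, against 0.155 and 0.0921 CPM at day 1 (log2 fold change 3.98 ± 0.39, adjusted p = 1.55e-05). Hnf4a, the nuclear receptor of visceral endoderm and liver, fell and had 2.83 and 1.84 CPM at day 2, against 8.78 and 5.48 CPM at day 1 (log2 fold change -1.61 ± 0.32, adjusted p = 0.00142). The secreted products of mature visceral endoderm were near 0, with Afp at 0.125 and 0.0401 CPM at day 2, against 0.116 and 0.138 CPM at day 1, and Apoa1 at 0.208 and 0.120 CPM at day 2, against 0.193 and 0.276 CPM at day 1. Neither was called, and Cer1 was under the filter. In WT, visceral endoderm and cubilin complex had 4 genes that rose and 1 that fell (median 0.79).

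**Figure D3:**
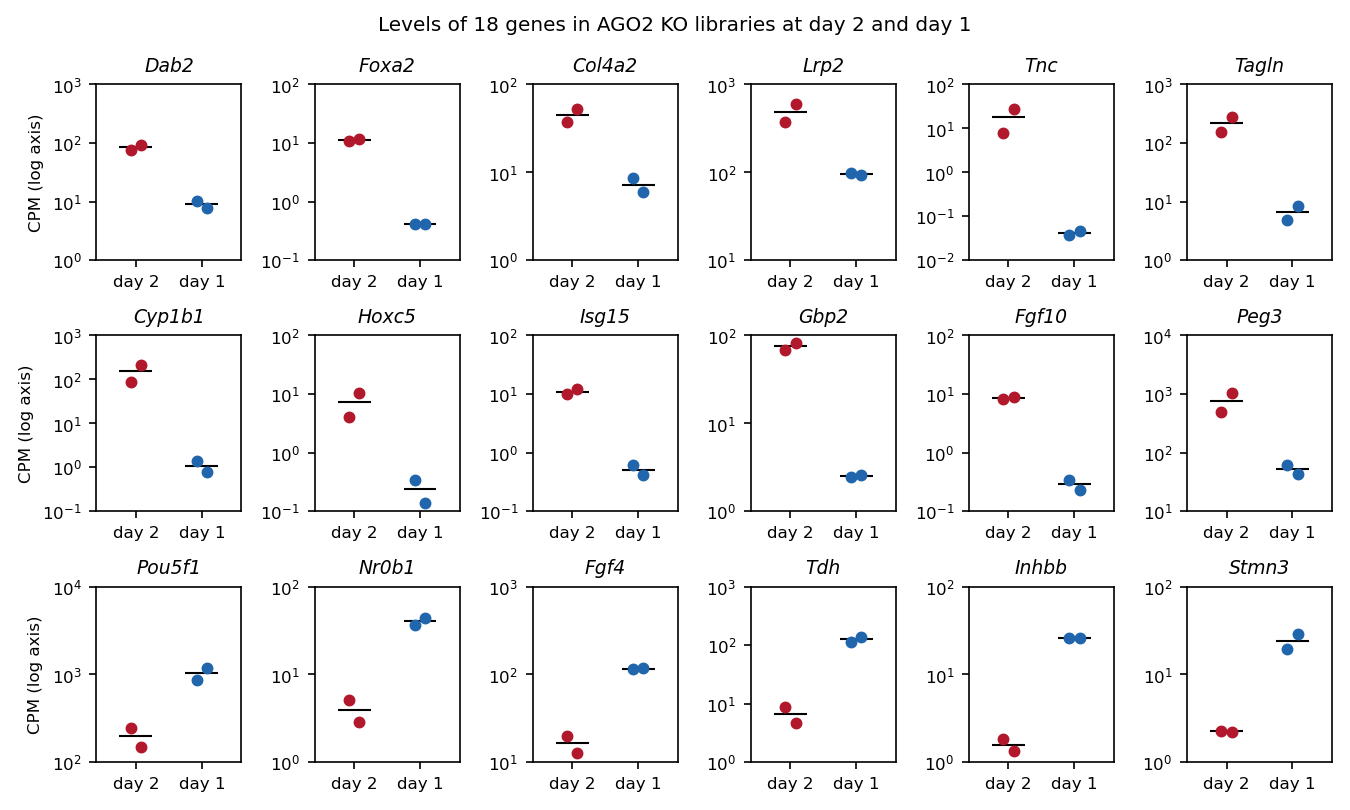
CPM on log axes of 18 genes in the 2 KO day 2 libraries (red, left) and the 2 KO day 1 libraries (blue, right), with the mean as a bar. The upper rows hold genes that rose and the bottom row genes that fell, and the days do not overlap in any panel.

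Several core pluripotency genes fell at day 2, but the central factors were not all called. Of the pluripotency core list, 0 of 14 tested members rose and 8 fell, with a median log2 fold change of -0.87. For pluripotency core, the number that rose and that fell was 0 and 3 without KO day 1 replicate 2 and 0 and 3 without KO day 2 replicate 2. Pou5f1, which encodes OCT4, stood at 248 and 151 CPM in KO day 2 libraries, against 872 and 1182 CPM in KO day 1 libraries (log2 fold change -2.36 ± 0.64, adjusted p = 0.0123), a call lost without KO day 1 replicate 2 (-2.13) or KO day 2 replicate 2 (-2.09). Sox2 had 140.3 and 110.0 CPM at day 2, against 259 and 216 CPM at day 1 (-0.93 ± 0.58, adjusted p = 0.219). Nanog had 239 and 176 CPM at day 2, against 399 and 331 CPM at day 1 (-0.82 ± 0.72, adjusted p = 0.378). Both lay lower in each day 2 library, but neither passed the test, whose spread was estimated over all 16 libraries. Nanog differed within the day 3 pairs, with 199.9 and 49.1 CPM in KO and 108 and 310.3 CPM in WT. In the fit of only the groups compared, the number of core members that rose and that fell was 1 and 11. Zfp296, a zinc finger gene of stem cells, fell (-1.66 ± 0.31), and so did L1td1, an RNA-binding protein of stem cells (-1.29 ± 0.28). Trim28, the corepressor of retroelements, had 1375 and 1315 CPM at day 2, against 1743 and 2519 CPM at day 1 (-0.66 ± 0.17), a call lost without KO day 1 replicate 2 (-0.38) or KO day 2 replicate 2 (-0.67). Dppa2, a chromatin protein of stem cells, had 173 and 206 CPM at day 2, against 323 and 339 CPM at day 1 (-0.81 ± 0.21), a call lost without KO day 2 replicate 1 (-0.73). In WT, pluripotency core had 0 genes that rose and 1 that fell (median -0.26). No member of the list was called in the genotype difference.

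Among naive pluripotency genes, more fell than rose. Of these, 2 of 18 tested members rose and 10 fell, with a median log2 fold change of -1.33. For naive pluripotency, the number that rose and that fell was 2 and 5 without KO day 1 replicate 1, 1 and 5 without KO day 1 replicate 2, 1 and 5 without KO day 2 replicate 1 and 1 and 3 without KO day 2 replicate 2. Nr0b1, which encodes DAX1, stood at 5.07 and 2.89 CPM in KO day 2 libraries, against 36.9 and 43.7 CPM in KO day 1 libraries (log2 fold change -3.34 ± 0.60, adjusted p = 0.00109). Fgf4, the growth factor that epiblast cells send to primitive endoderm, had 20.2 and 12.7 CPM at day 2, against 114 and 117 CPM at day 1 (log2 fold change -2.81 ± 0.52, adjusted p = 0.00142). Klf2, a Krüppel-like factor, had 42.2 and 26.5 CPM at day 2, against 162 and 171 CPM at day 1 (log2 fold change -2.28 ± 0.38, adjusted p = 7.37e-04). All 3 were several-fold lower in each day 2 library. Esrrb had 131 and 97.9 CPM at day 2, against 279 and 235 CPM at day 1 and did not pass the test (-1.17 ± 0.65, adjusted p = 0.163). Its day 3 pairs, which enter the spread, differed, with 125 and 33.7 CPM in KO and 44.3 and 132 CPM in WT. In the fit of only the groups compared, 2 naive members rose and 13 fell. Stat3, the transducer of LIF, went the other way with 106 and 109 CPM at day 2, against 44.8 and 32.6 CPM at day 1 (log2 fold change 1.47 ± 0.19, adjusted p = 1.05e-04). In WT, naive pluripotency had 1 gene that rose and 1 that fell (median -0.51), where Klf2 had a log2 fold change of -0.34 ± 0.37, adjusted p = 0.557. The genotype difference for Klf2 was -1.94 ± 0.52, adjusted p = 0.113. No member of the naive list was called in that difference.

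Genes of the formative and primed epiblast were called in both directions. Of them, 4 of 16 tested members rose and 6 fell, with a median log2 fold change of -0.35. For formative and primed epiblast, the number that rose and that fell was 4 and 3 without KO day 2 replicate 2. Over all genes tested 22.9% rose and 20.1% fell, so the number that rose is near that share. Fgf5, the growth factor gene that marks epiblast, had 11.1 and 14 CPM at day 2, against 0.503 and 1.06 CPM at day 1 (log2 fold change 4.02 ± 0.54, adjusted p = 1.46e-04). Cdh2, which encodes N-cadherin, had 17.4 and 33.2 CPM at day 2, against 3.29 and 2.35 CPM at day 1 (log2 fold change 3.16 ± 0.41, adjusted p = 1.54e-04), Sall2, a zinc finger factor, rose by 2.47 ± 0.27 and Sox4, a SOX factor, by 2.26 ± 0.25. The members that fell were Dnmt3a, Dnmt3b, Zic2, Zic5, Tcf15 and Foxd3, with log2 fold changes of -0.52 to -2.29. All but Dnmt3a are named after their values were seen. In WT, formative and primed epiblast had 5 genes that rose and 4 that fell (median -0.19).

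Some metabolic genes of stem cells fell. Tdh, the threonine dehydrogenase on which mouse stem cells depend, stood at 8.85 and 4.65 CPM in KO day 2 libraries, against 115 and 136 CPM in KO day 1 libraries (log2 fold change -4.22 ± 0.42, adjusted p = 3.47e-05). WT cells had 15 and 16.3 CPM at day 2, against 58 and 46.1 CPM at day 1 (-1.74 ± 0.38, adjusted p = 0.00698), and the genotype difference did not pass the test (-2.48 ± 0.54, adjusted p = 0.103). Of the threonine, glycine and folate-cycle list, 1 of 16 tested members rose and 7 fell, with a median log2 fold change of -0.50. Amt and Gcsh, components of the glycine cleavage system, fell. Amt had 76.5 and 72 CPM at day 2, against 161 and 173 CPM at day 1 (-1.17 ± 0.16). Gcsh had 65.9 and 66.6 CPM at day 2, against 127 and 162 CPM at day 1 (-1.13 ± 0.14). Mat2a, which makes S-adenosylmethionine, had 237 and 269 CPM at day 2, against 516 and 408 CPM at day 1 (-0.87 ± 0.15). In WT, threonine, glycine and folate-cycle metabolism had 0 genes that rose and 7 that fell (median -0.51).

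Genes of other lineages were followed as well. Of the list for primitive streak, mesoderm and definitive endoderm, 7 of 18 tested members rose and 0 fell, with a median log2 fold change of 0.73. For primitive streak, mesoderm and definitive endoderm, the number that rose and that fell was 4 and 0 without KO day 1 replicate 1, 4 and 0 without KO day 1 replicate 2 and 4 and 0 without KO day 2 replicate 2. Besides Foxa2, Lhx1, a LIM factor of the streak and anterior endoderm, rose by 3.83 ± 0.80, Foxf1, a forkhead factor of lateral mesoderm, by 2.99 ± 0.50, and Wnt3, which induces the streak, by 1.91 ± 0.45. The streak genes T, Mixl1, Gsc and Tbx6 were not called (0.63, 0.58, -0.23 and 0.83). Of the neural list, 6 of 14 tested members rose and 2 fell, with a median log2 fold change of 1.24. For neural regulators, the number that rose and that fell was 4 and 1 without KO day 1 replicate 2, 5 and 1 without KO day 2 replicate 1 and 4 and 1 without KO day 2 replicate 2. Meis1 and Meis2, homeobox cofactors that retinoic acid induces, and Irx3 rose by 2.89 ± 0.28, 2.20 ± 0.24 and 2.84 ± 0.29, whereas Stmn3, a stathmin of neurons, had 2.29 and 2.24 CPM at day 2, against 19.6 and 28.8 CPM at day 1 (log2 fold change -3.41 ± 0.35, adjusted p = 2.03e-05). Pax6 was not called (0.40 ± 0.25, adjusted p = 0.199). Of the trophoblast list, 5 of 11 tested members rose and 0 fell, with a median log2 fold change of 0.86. For trophoblast regulators, the number that rose and that fell was 2 and 0 without KO day 1 replicate 1, 2 and 0 without KO day 1 replicate 2 and 3 and 0 without KO day 2 replicate 2. Gata3 rose by 2.12 ± 0.32 and Esx1, a homeobox gene of placenta, by 2.32 ± 0.50. Krt7, a simple-epithelium keratin, rose by 1.70 ± 0.44, a call lost without KO day 1 replicate 1 (1.5) or KO day 1 replicate 2 (1.83). Eomes rose by 1.24 ± 0.40, a call lost without KO day 1 replicate 1 (1.38), KO day 1 replicate 2 (1.06) or KO day 2 replicate 2 (1.06). Cdx2 was not called (0.12). In WT, primitive streak, mesoderm and definitive endoderm had 6 genes that rose and 0 that fell (median 1.00). There neural regulators had 5 genes that rose and 1 that fell (median 0.75), and trophoblast regulators had 4 genes that rose and 0 that fell (median 0.95).

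Among markers of mature tissues, most mesothelial ones rose. Of the mesothelium list, 5 of 8 tested members rose and 0 fell, with a median log2 fold change of 1.71, and summed levels were 133 and 159.6 CPM at day 2, against 52.3 and 60.7 CPM at day 1. Krt19 had 28.5 and 33.4 CPM at day 2, against 5.03 and 5.16 CPM at day 1 (log2 fold change 2.60 ± 0.51, adjusted p = 0.00220). Lrrn4, a leucine-rich repeat protein, had 56.3 and 64.4 CPM at day 2, against 13.3 and 14.5 CPM at day 1 (log2 fold change 2.12 ± 0.25, adjusted p = 5.19e-05). Gpm6a rose by 2.06 ± 0.43 and Bnc1 by 3.85 ± 0.77. Of the endothelial list, 2 of 7 tested members rose and 2 fell, with a median log2 fold change of -0.07. Both numbers are near the shares over all genes tested, 22.9% that rose and 20.1% that fell. For endothelial marker, the number that rose and that fell was 1 and 2 without KO day 1 replicate 1, 0 and 1 without KO day 1 replicate 2, 1 and 1 without KO day 2 replicate 1, 1 and 1 without KO day 2 replicate 2 and 1 and 1 with the transcript length correction, and the sum was 85 and 66 CPM at day 2, against 225 and 188 CPM at day 1. Pecam1, also an adhesion molecule of stem cells, made up most of that sum and had 62.4 and 41.9 CPM at day 2, against 205 and 172 CPM at day 1 (log2 fold change -1.85 ± 0.33, adjusted p = 9.59e-04). Cdh5, the cadherin of endothelium, rose to 1.08 and 1.0 CPM at day 2, against 0.193 and 0.184 CPM at day 1 (2.42 ± 0.66), a call lost without KO day 1 replicate 1 (2.40) or KO day 1 replicate 2 (2.38). Tek (0.81 ± 0.31), a receptor of angiopoietin, rose, a call lost without KO day 1 replicate 2 (0.40), KO day 2 replicate 1 (0.88) or KO day 2 replicate 2 (0.66) and with the transcript length correction (0.53) and with the replicate block (0.82) and with DESeq2 size factors (0.77). Cldn5 (-1.46 ± 0.56) fell, a call lost without KO day 1 replicate 2 (-1.02), KO day 2 replicate 1 (-1.88) or KO day 2 replicate 2 (-1.20) and with the transcript length correction (-1.11) and with the replicate block (-1.47) and with DESeq2's Wald test (-1.52). Of the blood and macrophage list, 0 of 4 tested members rose and 3 fell, with a median log2 fold change of -1.67, and the sum was 11.4 and 9.30 CPM at day 2, against 20.8 and 23.4 CPM at day 1. The other 8 of the 12 genes, among them Ptprc, Tyrobp and the globin genes, were under the filter on low counts. Gata1 and Cd68 fell (-2.40 ± 0.48 and -1.25 ± 0.26). Csf1r fell and was at 0.0831 and 0.120 CPM at day 2, against 0.580 and 0.322 CPM at day 1. That call was lost without KO day 1 replicate 1 (-1.66), KO day 2 replicate 1 (-1.91) or KO day 2 replicate 2 (-2.40). Itgam was not called (-0.08 ± 0.40, adjusted p = 0.880). The mesothelium list in WT had 3 genes that rose and 0 that fell (median 1.51). Its sum in WT was 126 and 117 CPM at day 2, against 27.8 and 38.5 CPM at day 1. The endothelial list in WT had 0 genes that rose and 1 that fell (median -0.02). The blood and macrophage list in WT had 0 that rose and 2 that fell (median -0.92).

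Muscle and germ cell markers were also followed. Of the cardiac and skeletal muscle list, 1 of 9 tested members rose and 2 fell, with a median log2 fold change of -0.60. The number that fell is near the share over all genes tested, 20.1%. For cardiac and skeletal muscle marker, the number that rose and that fell was 0 and 0 without KO day 1 replicate 2, 0 and 1 without KO day 2 replicate 1, 0 and 0 without KO day 2 replicate 2 and 1 and 4 with the transcript length correction. Actn2 (-0.71 ± 0.21) fell, a call lost without KO day 1 replicate 2 (-0.60), KO day 2 replicate 1 (-0.79) or KO day 2 replicate 2 (-0.72). Tnni3 (-1.34 ± 0.40) fell, a call lost without KO day 1 replicate 2 (-1.38) or KO day 2 replicate 2 (-1.12) and with the transcript length correction (-0.85). Nkx2-5, a cardiac and gut homeobox gene, rose by 1.85 ± 0.63, a call lost with any 1 of the 4 libraries left out (1.67 to 1.94), and Myh7 was not called (-0.76 ± 0.34, adjusted p = 0.0805). The summed level was 63.2 and 64.8 CPM at day 2, against 103 and 102 CPM at day 1. Of the germ cell list, 1 of 16 tested members rose and 5 fell, with a median log2 fold change of -0.52. Over all genes tested the shares were 22.9% that rose and 20.1% that fell. For germ cell, the number that rose and that fell was 0 and 2 without KO day 1 replicate 2, 0 and 2 without KO day 2 replicate 1, 0 and 2 without KO day 2 replicate 2 and 0 and 3 with the transcript length correction. Sycp3, a protein of the meiotic chromosome axis, had 11.8 and 8.1 CPM at day 2, against 61.4 and 56.2 CPM at day 1 (log2 fold change -2.56 ± 0.32, adjusted p = 7.87e-05). Nanos3, an RNA-binding protein of germ cells, had 2.49 and 1.64 CPM at day 2, against 8.0 and 11.6 CPM at day 1 (log2 fold change -2.24 ± 0.47, adjusted p = 0.00210). Tex101 (-1.31 ± 0.43) fell, a call lost without KO day 1 replicate 2 (-1.15), KO day 2 replicate 1 (-1.31) or KO day 2 replicate 2 (-1.39) and with the transcript length correction (-0.90). Tdrd1 (0.72 ± 0.23) rose, a call lost with any 1 of the 4 libraries left out (0.61 to 0.74). That call was also lost with the transcript length correction (0.33) and with no expression filter (0.67). The cardiac and skeletal muscle list in WT had 0 genes that rose and 2 that fell (median -0.67). The germ cell list in WT had 2 that rose and 3 that fell (median -0.01).

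**Figure D4:**
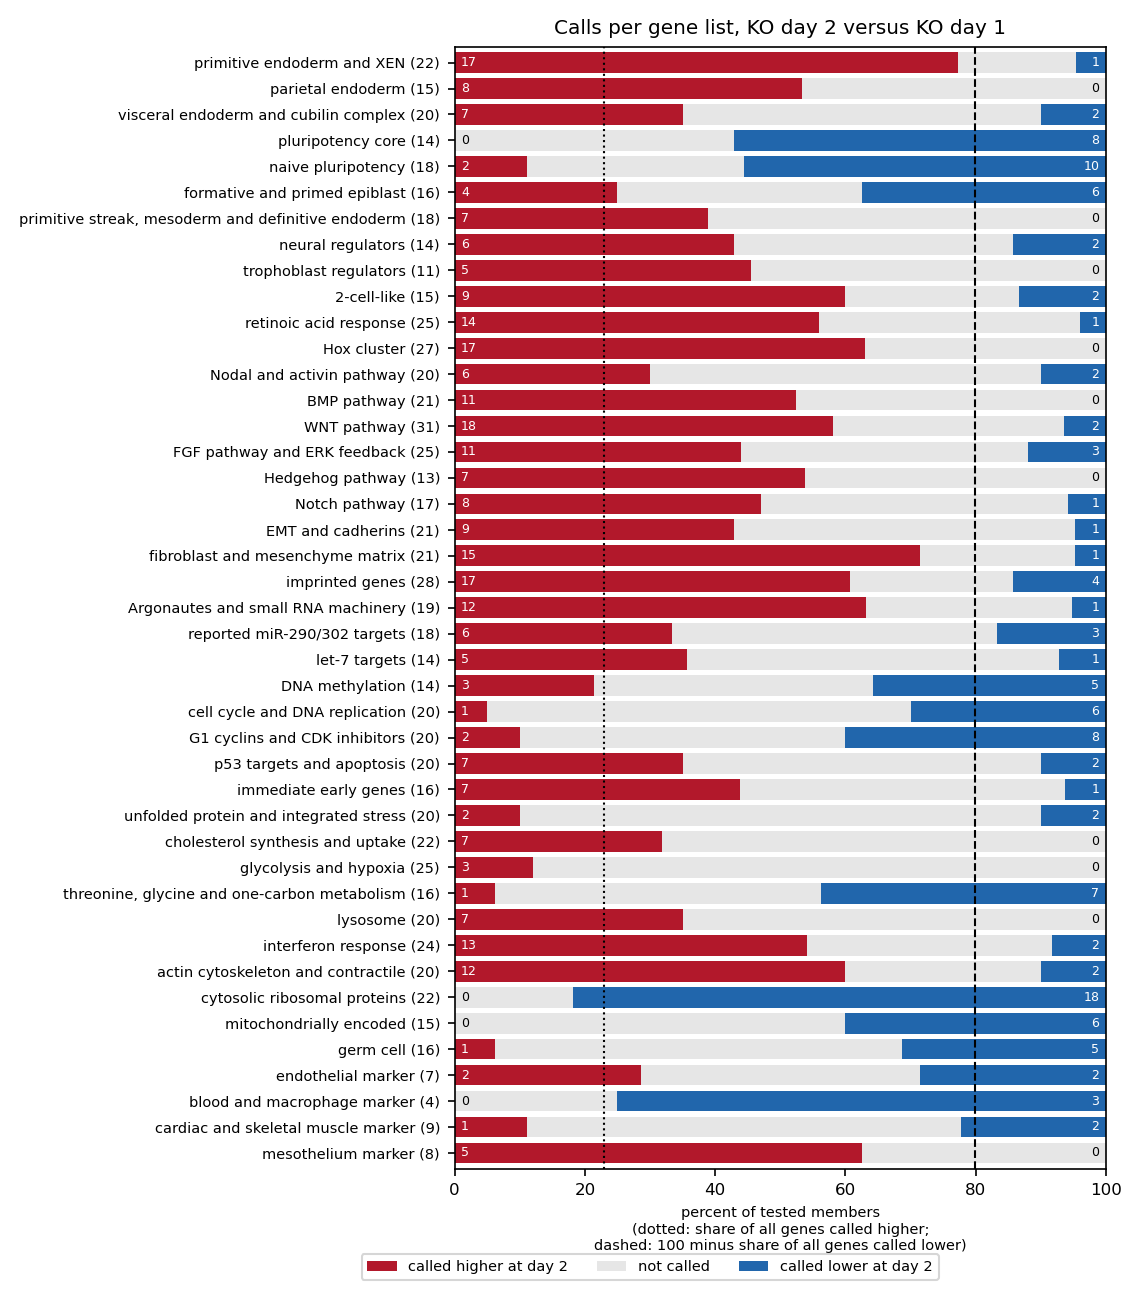
Share of tested members (horizontal axis, percent) called higher (red) or lower (blue) at KO day 2 in each of 43 gene lists, with the number of tested members in parentheses and counts in the bars. The dotted and dashed lines give the shares over all genes, 22.9% higher and 20.1% lower, which primitive endoderm exceeds on the higher side and pluripotency and ribosomal proteins on the lower side.

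More than 1 in 2 genes of the retinoic acid response rose. Of the list, 14 of 25 tested members rose and 1 fell, with a median log2 fold change of 1.04. For retinoic acid response, the number that rose and that fell was 12 and 2 without KO day 1 replicate 1, 9 and 1 without KO day 1 replicate 2, 7 and 1 without KO day 2 replicate 2 and 13 and 2 with the transcript length correction. Rxra, the common partner receptor, had 64.4 and 74.6 CPM at day 2, against 27.2 and 28 CPM at day 1 (log2 fold change 1.33 ± 0.19, adjusted p = 1.64e-04). Rarg, the receptor most abundant in stem cells, fell to 96.1 and 77.5 CPM at day 2, against 229.7 and 294 CPM at day 1 (log2 fold change -1.59 ± 0.21, adjusted p = 1.01e-04). Rarb, the receptor gene that is itself a target, had 23.8 and 31.6 CPM at day 2, against 11 and 11.6 CPM at day 1 (log2 fold change 1.29 ± 0.23, adjusted p = 7.60e-04). Cyp26a1, the retinoic acid hydroxylase, had 75.9 and 211 CPM at day 2, against 239 and 264 CPM at day 1, a wide spread at day 2 that did not pass the test (-0.81 ± 0.58, adjusted p = 0.277). Rarb and Cyp26a1 are named here for their promoters, after their values were seen. In WT, retinoic acid response had 8 genes that rose and 1 that fell (median 0.21).

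The promoters of these 2 genes are shown because they alone among 17 response genes with a RefSeq entry held a perfect direct repeat of the receptor half-site with a spacer of 5 bases (DR5) in the 250 bases before to 50 bases after the start site. Over 32851 RefSeq promoters of the same length, 32 held one on either strand (0.0974%). Capitals mark the match, and both sequences are on their gene's own strand in GRCm38.p6, chr14:16575427-16575726 (minus strand) and chr19:37697558-37697857 (plus strand).
Rarb: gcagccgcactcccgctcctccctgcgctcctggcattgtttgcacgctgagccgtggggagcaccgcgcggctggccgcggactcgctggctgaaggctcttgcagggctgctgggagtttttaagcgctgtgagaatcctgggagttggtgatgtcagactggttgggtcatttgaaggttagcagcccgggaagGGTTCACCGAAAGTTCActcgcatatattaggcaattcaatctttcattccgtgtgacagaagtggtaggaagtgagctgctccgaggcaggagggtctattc
Cyp26a1: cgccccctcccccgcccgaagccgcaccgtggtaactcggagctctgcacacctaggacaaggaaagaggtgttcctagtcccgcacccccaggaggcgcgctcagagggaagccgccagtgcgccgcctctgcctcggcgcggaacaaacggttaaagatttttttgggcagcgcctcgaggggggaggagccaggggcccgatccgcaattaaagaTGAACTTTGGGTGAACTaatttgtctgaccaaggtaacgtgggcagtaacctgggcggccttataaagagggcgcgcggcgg
The repeat lay 53 bases before the start of Rarb and 32 bases before that of Cyp26a1, and only Rarb was called. A match is a description of the letters, not a site or a response.

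Hox genes, which order the body axis and which retinoic acid induces in sequence, rose widely. Of the list, 17 of 27 tested members rose and 0 fell, with a median log2 fold change of 1.33. For Hox cluster, the number that rose and that fell was 11 and 0 without KO day 2 replicate 2. Hoxc5 had 4.03 and 10.5 CPM at day 2, against 0.348 and 0.138 CPM at day 1 (log2 fold change 4.83 ± 0.63, adjusted p = 1.22e-04). Hoxc4 had 8.02 and 13.7 CPM at day 2, against 1.51 and 1.34 CPM at day 1 (log2 fold change 2.93 ± 0.38, adjusted p = 1.00e-04). Hoxd9 had 2.41 and 2.57 CPM at day 2, against 0.232 and 0.138 CPM at day 1 (log2 fold change 3.68 ± 0.61, adjusted p = 4.56e-04). Hoxb3 had 30.1 and 49.1 CPM at day 2, against 12.6 and 9.62 CPM at day 1 (log2 fold change 1.83 ± 0.30, adjusted p = 4.39e-04). All 4 were higher in both day 2 libraries, and Hoxd9 remained low throughout. No member was called lower, and the median of the list in WT was 1.03 with 10 members that rose and 0 that fell.

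Signalling pathways were read by their ligands, receptors and targets. In the Nodal and activin list, the pathway that the added activin A engages, 6 of 20 tested members rose and 2 fell, with a median log2 fold change of 0.52. Over all genes tested the shares were 22.9% that rose and 20.1% that fell. For Nodal and activin pathway, the number that rose and that fell was 7 and 1 without KO day 1 replicate 1, 3 and 1 without KO day 1 replicate 2 and 3 and 1 without KO day 2 replicate 2. The ligand subunit gene Inhbb stood at 1.83 and 1.36 CPM in KO day 2 libraries, against 26.1 and 25.8 CPM in KO day 1 libraries (log2 fold change -4.02 ± 0.56, adjusted p = 2.02e-04). The activin antagonist Fst, which encodes follistatin, stood at 6.15 and 11.2 CPM at day 2, against 0.58 and 0.276 CPM at day 1 (log2 fold change 4.29 ± 0.57, adjusted p = 1.43e-04). The receptor gene Acvr2a and the transducer gene Smad3 rose by 0.99 ± 0.18 and 1.35 ± 0.22. The targets Lefty1, Lefty2 and Nodal were not called (0.24, 0.66 and 0.23). In the BMP list, 11 of 21 tested members rose and 0 fell, with a median log2 fold change of 0.79. For BMP pathway, the number that rose and that fell was 7 and 0 without KO day 1 replicate 1, 3 and 0 without KO day 1 replicate 2 and 4 and 0 without KO day 2 replicate 2. The ligand gene Bmp2 had 1.45 and 2.81 CPM at day 2, against 0.271 and 0.0921 CPM at day 1 (3.46 ± 0.83), a call lost without KO day 1 replicate 2 (2.94). The antagonist gene Chrd rose by 1.14 ± 0.28, a call lost without KO day 1 replicate 1 (0.86) or KO day 2 replicate 1 (0.95). The receptor gene Bmpr1a rose by 1.08 ± 0.19 and the target Msx1 by 2.51 ± 0.34, while the target genes Id1, Id2 and Id3 were not called (0.22, 0.40 and 0.39). In WT, Nodal and activin pathway had 2 genes that rose and 2 that fell (median 0.08) and BMP pathway had 5 genes that rose and 0 that fell (median 0.76).

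In the WNT list, 18 of 31 tested members rose and 2 fell, with a median log2 fold change of 1.28. For WNT pathway, the number that rose and that fell was 15 and 1 without KO day 1 replicate 1, 12 and 0 without KO day 1 replicate 2, 16 and 0 without KO day 2 replicate 1, 12 and 0 without KO day 2 replicate 2 and 15 and 1 with the transcript length correction. Besides Dkk1 and Wnt3, the Dickkopf family gene Dkk3 had 32.3 and 39.5 CPM at day 2, against 4.99 and 3.22 CPM at day 1 (log2 fold change 3.12 ± 0.36, adjusted p = 5.73e-05), the receptor gene Fzd2 had 44.2 and 53.8 CPM at day 2, against 11.6 and 19.8 CPM at day 1 (log2 fold change 1.64 ± 0.28, adjusted p = 5.92e-04) and the direct target Sp5 had 4.78 and 4.17 CPM at day 2, against 0.503 and 0.507 CPM at day 1 (log2 fold change 3.13 ± 0.53, adjusted p = 5.41e-04). In the FGF list, 11 of 25 tested members rose and 3 fell, with a median log2 fold change of 0.81. For FGF pathway and ERK feedback, the number that rose and that fell was 7 and 3 without KO day 2 replicate 2. The ligand gene Fgf10, which signals from mesenchyme to epithelium, stood at 8.14 and 8.9 CPM in KO day 2 libraries, against 0.348 and 0.23 CPM in KO day 1 libraries (log2 fold change 4.83 ± 0.41, adjusted p = 7.01e-06). Fgfr3 rose by 1.78 ± 0.26. Etv4, a transcription factor that reports FGF signalling, fell and had 15.8 and 14 CPM at day 2, against 73.8 and 102 CPM at day 1 (log2 fold change -2.56 ± 0.26, adjusted p = 1.86e-05), and of the ligand genes Fgf4 fell and Fgf5 rose. In WT, WNT pathway had 9 genes that rose and 0 that fell (median 0.60) and FGF pathway and ERK feedback had 9 genes that rose and 2 that fell (median 0.76).

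In the Hedgehog list, 7 of 13 tested members rose and 0 fell, with a median log2 fold change of 0.83. For Hedgehog pathway, the number that rose and that fell was 4 and 0 without KO day 1 replicate 2, 4 and 0 without KO day 2 replicate 2 and 4 and 1 with the transcript length correction. The transducer Smo had 93.4 and 112 CPM at day 2, against 43.2 and 38.7 CPM at day 1 (log2 fold change 1.33 ± 0.14, adjusted p = 3.28e-05). The coreceptor Cdon had 69.5 and 101 CPM at day 2, against 36.2 and 26.9 CPM at day 1 (log2 fold change 1.44 ± 0.22, adjusted p = 2.51e-04). The transcription factor Gli3 had 71.4 and 104 CPM at day 2, against 26.6 and 18.3 CPM at day 1 (log2 fold change 1.96 ± 0.30, adjusted p = 3.02e-04). The receptor Ptch1 had 416 and 527 CPM at day 2, against 247 and 143 CPM at day 1 (1.27 ± 0.29), a call lost without KO day 1 replicate 2 (0.93) and with the transcript length correction (0.52). The target Gli1 was not called (0.33). In the Notch list, 8 of 17 tested members rose and 1 fell, with a median log2 fold change of 0.73. For Notch pathway, the number that rose and that fell was 3 and 1 without KO day 1 replicate 2, 5 and 1 without KO day 2 replicate 1, 3 and 1 without KO day 2 replicate 2 and 4 and 1 with the transcript length correction. The receptor Notch3 stood at 542 and 606 CPM in KO day 2 libraries, against 66.5 and 38.3 CPM in KO day 1 libraries (log2 fold change 3.45 ± 0.50, adjusted p = 3.63e-04), and Notch2 rose by 1.6 ± 0.23. The coactivator Maml3 had 5.53 and 8.06 CPM at day 2, against 0.541 and 0.368 CPM at day 1 (log2 fold change 3.86 ± 0.33, adjusted p = 7.01e-06). Notch4, the endothelial receptor, fell to 6.77 and 5.97 CPM at day 2, against 22.8 and 14.9 CPM at day 1 (log2 fold change -1.57 ± 0.26, adjusted p = 4.59e-04). In WT, Hedgehog pathway had 3 genes that rose and 1 that fell (median 0.15) and Notch pathway had 4 genes that rose and 1 that fell (median 0.33).

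Genes of mesenchymal matrix showed some of the largest rises. Of the fibroblast and mesenchyme list, 15 of 21 tested members rose and 1 fell, with a median log2 fold change of 2.43. For fibroblast and mesenchyme matrix, the number that rose and that fell was 9 and 0 without KO day 1 replicate 1, 8 and 1 without KO day 1 replicate 2 and 8 and 0 without KO day 2 replicate 2. Tnc, which encodes the matrix glycoprotein tenascin C, stood at 7.81 and 28.2 CPM in KO day 2 libraries, against 0.0387 and 0.046 CPM in KO day 1 libraries. It had 892 counts at day 2 and 2 at day 1, a ratio of 433 with a 95% interval of 119.5 to 3581 that covers counting error only. Col1a2, a chain of fibrillar collagen, had 14.1 and 32.4 CPM at day 2, against 0.348 and 0.553 CPM at day 1 (log2 fold change 5.69 ± 0.58, adjusted p = 4.07e-05). Col6a1 had 6.32 and 6.61 CPM at day 2, against 0.889 and 0.737 CPM at day 1 (log2 fold change 2.97 ± 0.54, adjusted p = 0.00101). The 2 genes were expressed at day 2 in both libraries and nearly absent at day 1, but the fibroblast markers Dcn, Lum and Postn stayed close to 0 in all 4 libraries, although Dcn was called higher (3.18 ± 1.13, adjusted p = 0.0362). In WT, fibroblast and mesenchyme matrix had 8 genes that rose and 0 that fell (median 1.81). Of the list for epithelial-mesenchymal transition and cadherins, 9 of 21 tested members rose and 1 fell, with a median log2 fold change of 0.42. For EMT and cadherins, the number that rose and that fell was 5 and 0 without KO day 1 replicate 2, 4 and 0 without KO day 2 replicate 2 and 7 and 2 with the transcript length correction. Zeb2, a repressor of epithelial genes, had 8.64 and 14.7 CPM at day 2, against 1.12 and 1.2 CPM at day 1 (log2 fold change 3.33 ± 0.45, adjusted p = 1.49e-04). Cdh11 had 2.45 and 3.25 CPM at day 2, against 0.0387 and 0.138 CPM at day 1 (log2 fold change 4.97 ± 0.90, adjusted p = 0.00111). Cldn6, a claudin, had 54.4 and 53.4 CPM at day 2, against 29.4 and 35 CPM at day 1 (log2 fold change 0.75 ± 0.17, adjusted p = 0.00298). E-cadherin, encoded by Cdh1, was not called (-0.17 ± 0.22, adjusted p = 0.546). In WT, EMT and cadherins had 7 genes that rose and 1 that fell (median 0.89).

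Contractile and actin-regulating genes rose as well. Of that list, 12 of 20 tested members rose and 2 fell, with a median log2 fold change of 1.43. For actin cytoskeleton and contractile, the number that rose and that fell was 7 and 3 without KO day 1 replicate 1, 7 and 2 without KO day 1 replicate 2 and 7 and 2 without KO day 2 replicate 2. Tagln, which encodes the actin-bundling protein transgelin, stood at 156 and 281 CPM in KO day 2 libraries, against 4.83 and 8.33 CPM in KO day 1 libraries (log2 fold change 5.06 ± 0.58, adjusted p = 1.01e-04). Acta1, an alpha-actin, had 19 and 33.6 CPM at day 2, against 0.309 and 1.34 CPM at day 1 (log2 fold change 5.05 ± 0.73, adjusted p = 3.87e-04). Ankrd1, a mechanical-stress-induced nuclear protein, had 3.86 and 6.9 CPM at day 2, against 0.193 and 0 CPM at day 1 (log2 fold change 5.60 ± 1.10, adjusted p = 0.00213). Myh9, the non-muscle myosin heavy chain, had 454 and 531 CPM at day 2, against 201 and 159 CPM at day 1 (log2 fold change 1.45 ± 0.20, adjusted p = 1.5e-04). The skeletal muscle genes Myh13 and Mylpf went the other way, with 4.07 and 2.53 CPM at day 2, against 27.7 and 22.6 CPM at day 1 for Myh13 (log2 fold change -2.93 ± 0.27, adjusted p = 1.13e-05) and 34.2 and 25.5 CPM at day 2, against 194 and 279.8 CPM at day 1 for Mylpf (log2 fold change -2.99 ± 0.34, adjusted p = 5.26e-05). In WT, actin cytoskeleton and contractile had 6 genes that rose and 2 that fell (median 1.01). The CArG box, the sequence that serum response factor binds, was found in the promoters of 5 of 16 list genes with an entry (31.2%), namely Acta1, Actc1, Cnn2, Myl9 and Myh13, and in 535 of 32851 promoters (1.63%). Acta1 is shown as the member with the largest rise among these 5, with the box in capitals 73 bases before the start site, from chr8:123894726-123895025 (GRCm38.p6, minus strand).
Acta1: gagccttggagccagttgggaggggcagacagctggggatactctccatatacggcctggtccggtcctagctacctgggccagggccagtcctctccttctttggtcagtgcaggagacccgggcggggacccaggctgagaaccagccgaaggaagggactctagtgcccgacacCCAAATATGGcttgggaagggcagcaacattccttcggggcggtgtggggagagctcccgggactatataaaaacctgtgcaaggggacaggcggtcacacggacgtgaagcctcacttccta
Myh13, which carries the box too, fell, so genes with the box moved in both directions.

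Interferon-inducible genes rose in a subset. Of the interferon list, 13 of 24 tested members rose and 2 fell, with a median log2 fold change of 1.52. For interferon response, the number that rose and that fell was 6 and 2 without KO day 1 replicate 2, 8 and 2 without KO day 2 replicate 2 and 12 and 1 with the transcript length correction. Irf1, a transcription factor of the response, stood at 261 and 246 CPM in KO day 2 libraries, against 66.3 and 54.6 CPM in KO day 1 libraries (log2 fold change 2.07 ± 0.27, adjusted p = 1.27e-04). Psmb8, a subunit of the immunoproteasome, had 21.3 and 20.7 CPM at day 2, against 1.16 and 0.645 CPM at day 1 (log2 fold change 4.51 ± 0.63, adjusted p = 2.41e-04). Tap1, the peptide transporter, had 33.9 and 32.1 CPM at day 2, against 8.35 and 7.46 CPM at day 1 (log2 fold change 2.06 ± 0.27, adjusted p = 1.15e-04). Ddx58, the RNA sensor RIG-I, had 43.1 and 47 CPM at day 2, against 8.62 and 7.83 CPM at day 1 (log2 fold change 2.45 ± 0.38, adjusted p = 3.98e-04). The ubiquitin-like modifier Isg15, named after its values were seen, had 9.97 and 12 CPM at day 2, against 0.619 and 0.414 CPM at day 1 (log2 fold change 4.38 ± 0.99, adjusted p = 0.00462). Outside the list, 3 genes of guanylate-binding proteins were among the 15 largest rises that the rule for named genes took. Gbp2 stood at 69.2 and 82.5 CPM in KO day 2 libraries, against 2.44 and 2.58 CPM in KO day 1 libraries (log2 fold change 4.92 ± 0.48, adjusted p = 3.77e-05). Gbp3 had 22.1 and 26.3 CPM at day 2, against 0.735 and 0.276 CPM at day 1 (log2 fold change 5.52 ± 0.82, adjusted p = 4.55e-04). Gbp7 had 23.3 and 28 CPM at day 2, against 0.966 and 0.276 CPM at day 1 (log2 fold change 5.31 ± 0.66, adjusted p = 1.4e-04). Cxcl11, a chemokine gene of the same response, had 9.64 and 12.3 CPM at day 2, against 0.193 and 0.184 CPM at day 1 (log2 fold change 5.81 ± 0.88, adjusted p = 4.25e-04). These 3 Gbp genes are similar in sequence and lie together on chromosome 3, so their counts are uncertain. Ifitm2 and Oas1a, named after their values were seen, fell (-0.99 and -1.53). At least 1 of these 2 calls was lost with the transcript length correction. In WT, interferon response had 11 genes that rose and 0 that fell (median 1.63), and Gbp2 had 93.7 and 111 CPM at day 2, against 1.56 and 2.31 CPM at day 1.

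The interferon-stimulated response element (ISRE, searched on both strands as GAAA, any 2 bases and GAAA) lay in the promoters of 11 of 20 list genes with a RefSeq entry (55%), among them Isg15, Rsad2 and Ddx58, and in 1131 of 32851 promoters (3.44%). Isg15 and Rsad2 are shown as 2 of the 3 largest rises that passed the test in the list, and Gbp2 as the one with the highest CPM of the 3 guanylate-binding protein genes named. Capitals mark the matches, which overlap in Isg15, and coordinates are GRCm38.p6, chr4:156200769-156201068 (minus strand), chr12:26456403-26456702 (minus strand) and chr3:142620413-142620712 (plus strand).
Isg15: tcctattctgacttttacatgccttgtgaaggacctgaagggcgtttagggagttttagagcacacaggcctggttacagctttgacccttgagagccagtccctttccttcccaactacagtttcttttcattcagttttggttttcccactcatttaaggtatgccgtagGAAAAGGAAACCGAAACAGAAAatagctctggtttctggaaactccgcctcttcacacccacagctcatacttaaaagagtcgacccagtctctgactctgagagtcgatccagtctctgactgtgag
Rsad2: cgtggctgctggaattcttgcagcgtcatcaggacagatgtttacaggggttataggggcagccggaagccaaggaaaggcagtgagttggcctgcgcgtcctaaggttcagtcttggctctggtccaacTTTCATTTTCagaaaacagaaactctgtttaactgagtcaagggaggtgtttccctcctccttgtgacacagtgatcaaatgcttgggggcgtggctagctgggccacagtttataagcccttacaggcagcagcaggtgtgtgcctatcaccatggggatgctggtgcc
Gbp2: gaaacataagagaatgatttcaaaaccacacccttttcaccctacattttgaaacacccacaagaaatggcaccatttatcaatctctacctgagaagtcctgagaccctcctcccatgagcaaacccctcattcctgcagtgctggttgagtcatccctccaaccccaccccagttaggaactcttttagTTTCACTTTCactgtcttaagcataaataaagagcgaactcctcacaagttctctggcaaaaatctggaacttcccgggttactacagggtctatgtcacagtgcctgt
The nearest match began 66 bases before the start site of Isg15, 120 before that of Rsad2 and 59 before that of Gbp2. Rsad2, which encodes viperin, had 1.62 and 1.36 CPM at day 2, against 0.0387 and 0.046 CPM at day 1 (log2 fold change 4.94 ± 1.4, adjusted p = 0.0138). The other list genes with the element were Ifit1, Ifit3, Stat2, Ifitm2, Ifitm3, B2m, Bst2 and Oas1a. Of these Stat2 and B2m rose, Oas1a and Ifitm2 fell and the other 4 were not called.

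Imprinted genes, which are expressed from 1 parental allele and act in growth of the embryo and placenta, more often rose than fell. Of the list, 17 of 28 tested members rose and 4 fell, with a median log2 fold change of 1.4. For imprinted genes, the number that rose and that fell was 16 and 0 without KO day 1 replicate 2, 17 and 2 without KO day 2 replicate 1 and 15 and 0 without KO day 2 replicate 2. Peg10, a retrotransposon-derived gene needed for the placenta, stood at 2194 and 3452 CPM in KO day 2 libraries, against 328 and 283 CPM in KO day 1 libraries (log2 fold change 3.21 ± 0.38, adjusted p = 7.63e-05). Peg3, a zinc finger gene, had 505 and 1031 CPM at day 2, against 62.9 and 42.7 CPM at day 1 (log2 fold change 3.86 ± 0.41, adjusted p = 4.63e-05). Igf2, the growth factor gene, had 54.2 and 66 CPM at day 2, against 8.78 and 9.12 CPM at day 1 (log2 fold change 2.75 ± 0.28, adjusted p = 1.95e-05). Sgce, the neighbour of Peg10 that encodes sarcoglycan epsilon, had 32.7 and 39.3 CPM at day 2, against 6.77 and 5.89 CPM at day 1 (log2 fold change 2.5 ± 0.25, adjusted p = 2.03e-05). Summed over the list, levels were 4747 and 7145 CPM at day 2, against 1387 and 1405 CPM at day 1. Of the members that fell, Phlda2 and Cdkn1c, which restrain placental growth, had -1.57 and -0.78. These genes are named after their values were seen. Both calls were lost without KO day 1 replicate 2 and also without KO day 2 replicate 2. In WT, imprinted genes had 15 genes that rose and 1 that fell (median 1.48).

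Because AGO2 was targeted, the small RNA machinery was read gene by gene. Of the list, 12 of 19 tested members rose and 1 fell, with a median log2 fold change of 0.61. For Argonautes and small RNA machinery, the number that rose and that fell was 5 and 0 without KO day 1 replicate 2, 5 and 0 without KO day 2 replicate 2 and 5 and 2 with the transcript length correction. Among the other Argonautes, Ago1 stood at 198 and 224 CPM in KO day 2 libraries, against 117 and 91.5 CPM in KO day 1 libraries (log2 fold change 1.02 ± 0.20, adjusted p = 0.00135). Ago4 had 6.32 and 7.3 CPM at day 2, against 2.13 and 1.24 CPM at day 1 (log2 fold change 2.00 ± 0.35, adjusted p = 6.57e-04), while Ago3 changed by 0.98 ± 0.29, adjusted p = 0.0140. Ago1, Ago3 and Ago4 were thus higher in both day 2 libraries than in either day 1 library. Tnrc6c, a scaffold of the silencing complex, had 68.8 and 74.9 CPM at day 2, against 43.9 and 40.0 CPM at day 1 (log2 fold change 0.78 ± 0.14, adjusted p = 8.61e-04), a call lost with the transcript length correction (-0.07), a change of sign. Zcchc11, a uridyltransferase of the let-7 precursor, had 169 and 203 CPM at day 2, against 94 and 48.4 CPM at day 1 (log2 fold change 1.38 ± 0.22, adjusted p = 3.91e-04). Dicer1 rose by 0.61 ± 0.16, and Drosha was not called (0.04 ± 0.17, adjusted p = 0.867). Ago3, Dicer1 and Drosha are named after their values were seen. Whether the calls of Ago3 and Dicer1 held in the alternatives was not followed gene by gene. In WT, Argonautes and small RNA machinery had 2 genes that rose and 3 that fell (median -0.06).

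Genes reported as targets of the stem cell miR-290 and miR-302 families were called in both directions. Of these, 6 of 18 tested members rose and 3 fell, with a median log2 fold change of 0.48. Over all genes tested the shares were 22.9% and 20.1%. Irf2, an interferon regulatory factor, had 8.06 and 9.54 CPM at day 2, against 0.464 and 0.138 CPM at day 1 (log2 fold change 4.79 ± 0.36, adjusted p = 3.92e-06). Lats2, a Hippo pathway kinase, had 22 and 32.6 CPM at day 2, against 5.3 and 5.34 CPM at day 1 (log2 fold change 2.36 ± 0.32, adjusted p = 1.47e-04). Ei24, a p53-induced gene, fell and had 156 and 157 CPM at day 2, against 315 and 301 CPM at day 1 (-0.98 ± 0.13). Ccnd1, which encodes cyclin D1, fell and had 66.9 and 69.2 CPM at day 2, against 143 and 154 CPM at day 1 (-1.13 ± 0.21). In WT, the reported targets of these families had 3 genes that rose and 2 that fell (median 0.44). Of the let-7 targets, 5 of 14 tested members rose and 1 fell, with a median log2 fold change of 0.35. The shares over all genes tested are those given above, 22.9% and 20.1%. For let-7 targets, the number that rose and that fell was 4 and 3 with the transcript length correction. Hmga2, the chromatin protein gene with many let-7 sites, had 59.2 and 75.9 CPM at day 2, against 17.2 and 12.2 CPM at day 1 (log2 fold change 2.20 ± 0.26, adjusted p = 5.17e-05). Arid3b, Igf2bp3 and Plagl2 rose by 1.18 ± 0.17, 1.08 ± 0.18 and 0.90 ± 0.19, and Myc fell (-1.15). The call of Myc, named after its values were seen, was lost without KO day 1 replicate 2 and without KO day 2 replicate 1. In WT, let-7 targets had 3 genes that rose and 1 that fell (median 0.13). Mature microRNAs were not measured in these libraries.

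In both cell cycle lists more genes were called lower than higher. Of the replication and mitosis list, 1 of 20 tested members rose and 6 fell, with a median log2 fold change of -0.30. Over all genes tested the shares were 22.9% that rose and 20.1% that fell. For cell cycle and DNA replication, the number that rose and that fell was 0 and 3 without KO day 1 replicate 2. Rrm2, the ribonucleotide reductase subunit, had 168 and 182 CPM at day 2, against 369 and 342 CPM at day 1 (log2 fold change -1.02 ± 0.13, adjusted p = 9.79e-05), Gmnn, which encodes the licensing inhibitor geminin, fell (-0.93 ± 0.16) and so did Pcna, the sliding clamp (-0.68 ± 0.13). Cdk1 fell (-0.67 ± 0.16), a call lost without KO day 1 replicate 2 (-0.50). Of the G1 list, 2 of 20 tested members rose and 8 fell, with a median log2 fold change of 0.01. The list holds both cyclins and CDK inhibitors, and genes of both kinds were among those that fell. For G1 cyclins and CDK inhibitors, the number that rose and that fell was 1 and 2 without KO day 1 replicate 2, 1 and 5 without KO day 2 replicate 1 and 1 and 2 without KO day 2 replicate 2. Ccne1, which encodes cyclin E1, had 120.2 and 129 CPM at day 2, against 251 and 341 CPM at day 1 (log2 fold change -1.25 ± 0.18, adjusted p = 1.75e-04), and the D cyclins diverged, with Ccnd2 at 111 and 159 CPM at day 2, against 56.6 and 58.7 CPM at day 1 (log2 fold change 1.23 ± 0.26, adjusted p = 0.00241) beside the fall of Ccnd1. Cdkn2d fell (-0.71 ± 0.18), a call lost without KO day 1 replicate 2 (-0.55) or KO day 2 replicate 2 (-0.66) and with the transcript length correction (-0.37). In WT, cell cycle and DNA replication had 0 genes that rose and 8 that fell (median -0.39) and G1 cyclins and CDK inhibitors had 2 genes that rose and 5 that fell (median -0.21).

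Of the p53 target and apoptosis list, 7 of 20 tested members rose and 2 fell, with a median log2 fold change of 0.49. Over all genes tested the shares were 22.9% that rose and 20.1% that fell. For p53 targets and apoptosis, the number that rose and that fell was 4 and 2 without KO day 1 replicate 1, 3 and 0 without KO day 1 replicate 2, 7 and 1 without KO day 2 replicate 1, 3 and 0 without KO day 2 replicate 2 and 6 and 1 with the transcript length correction. Bcl2, the survival gene, had 2.74 and 3.97 CPM at day 2, against 0.812 and 0.599 CPM at day 1 (log2 fold change 2.23 ± 0.32, adjusted p = 1.92e-04). Pmaip1, which encodes NOXA, rose by 0.98 ± 0.24, a call lost without KO day 1 replicate 2 (0.81). Trp53inp1 rose by 0.88 ± 0.22, a call lost without KO day 1 replicate 2 (0.58) or KO day 2 replicate 2 (0.71). Fas, the death receptor, rose by 2.18 ± 0.54, a call lost without KO day 1 replicate 1 (1.65). Cdkn1a was not called (0.46 ± 0.32, adjusted p = 0.269). Of the immediate early list, 7 of 16 tested members rose and 1 fell, with a median log2 fold change of 1.20. For immediate early genes, the number that rose and that fell was 2 and 1 without KO day 1 replicate 1, 2 and 0 without KO day 1 replicate 2 and 1 and 1 without KO day 2 replicate 2. Jun had 50.8 and 78.2 CPM at day 2, against 14 and 12.6 CPM at day 1 (log2 fold change 2.28 ± 0.40, adjusted p = 0.00106). Fos rose by 3.58 ± 1.02, a call lost without KO day 1 replicate 1 (3.62), KO day 1 replicate 2 (3.49) or KO day 2 replicate 2 (2.78). Junb rose by 1.73 ± 0.50, a call lost without KO day 1 replicate 1 (1.31), KO day 2 replicate 1 (1.72) or KO day 2 replicate 2 (1.64). Klf6 rose by 1.15 ± 0.31, a call lost without KO day 1 replicate 2 (0.88) or KO day 2 replicate 2 (0.93). In WT, p53 targets and apoptosis had 4 genes that rose and 1 that fell (median 0.37) and immediate early genes had 3 genes that rose and 0 that fell (median 1.01).

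Stress genes mostly did not pass. Of the unfolded protein and integrated stress list, 2 of 20 tested members rose and 2 fell, with a median log2 fold change of -0.11. For unfolded protein and integrated stress, the number that rose and that fell was 1 and 4 without KO day 1 replicate 1, 0 and 0 without KO day 1 replicate 2, 0 and 0 without KO day 2 replicate 1, 2 and 1 without KO day 2 replicate 2 and 2 and 1 with the transcript length correction. The chaperone Hspa5 fell to 675 and 870.1 CPM at day 2, against 1070 and 1194 CPM at day 1 (-0.55 ± 0.19), a call lost without KO day 1 replicate 2 (-0.48) or KO day 2 replicate 1 (-0.43). Xbp1 fell (-0.46 ± 0.16), a call lost without KO day 1 replicate 2 (-0.44), KO day 2 replicate 1 (-0.42) or KO day 2 replicate 2 (-0.59) and with the transcript length correction (-0.32) and with the replicate block (-0.46). Atf3 rose (1.43 ± 0.44), a call lost with any 1 of the 4 libraries left out (1.34 to 1.43). Vldlr rose (2.23 ± 0.58), a call lost without KO day 1 replicate 2 (1.86) or KO day 2 replicate 1 (1.83) and with the transcript length correction (1.64). In WT, unfolded protein and integrated stress had 0 genes that rose and 0 that fell (median 0.09). Of the DNA methylation list, 3 of 14 tested members rose and 5 fell, with a median log2 fold change of -0.23. Over all genes tested 22.9% rose and 20.1% fell, so the number that rose is near that share. For DNA methylation, the number that rose and that fell was 1 and 2 without KO day 1 replicate 2, 3 and 2 without KO day 2 replicate 1, 1 and 2 without KO day 2 replicate 2 and 3 and 8 with the transcript length correction. Tet3, which oxidises methylcytosine, had 49.1 and 67.9 CPM at day 2, against 12.5 and 7.87 CPM at day 1 (log2 fold change 2.52 ± 0.26, adjusted p = 2.43e-05). Dnmt3a, the de novo methyltransferase, had 183 and 205 CPM at day 2, against 310.4 and 311 CPM at day 1 (log2 fold change -0.68 ± 0.17, adjusted p = 0.00526). Zfp57, which protects imprints, had 129 and 119 CPM at day 2, against 222 and 268 CPM at day 1 (log2 fold change -0.98 ± 0.21, adjusted p = 0.00212). In WT, DNA methylation had 1 gene that rose and 6 that fell (median -0.41).

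Few genes of energy metabolism were called, and those of sterol metabolism that were called rose. Of the glycolysis and hypoxia list, 3 of 25 tested members rose and 0 fell, with a median log2 fold change of 0.01. For glycolysis and hypoxia, the number that rose and that fell was 1 and 0 without KO day 1 replicate 1, 0 and 0 without KO day 1 replicate 2, 0 and 0 without KO day 2 replicate 1, 1 and 0 without KO day 2 replicate 2 and 1 and 2 with the transcript length correction. The glucose transporter gene Slc2a3 had 1454 and 1263 CPM at day 2, against 657 and 552 CPM at day 1 (1.17 ± 0.33), a call lost without KO day 1 replicate 2 (1.04) or KO day 2 replicate 1 (1.02) and with the transcript length correction (0.66). Slc2a1 rose by 0.69 ± 0.24, a call lost with any 1 of the 4 libraries left out (0.59 to 0.74) and with the transcript length correction (0.62). Car9, a carbonic anhydrase, rose by 1.37 ± 0.40, a call lost with any 1 of the 4 libraries left out (1.26 to 1.41). Ankrd37 did not pass (-0.95 ± 0.38, adjusted p = 0.0562). In WT, glycolysis and hypoxia had 2 genes that rose and 2 that fell (median 0.13). Of the cholesterol list, 7 of 22 tested members rose and 0 fell, with a median log2 fold change of 0.21. Over all genes tested the shares were 22.9% that rose and 20.1% that fell. For cholesterol synthesis and uptake, the number that rose and that fell was 2 and 0 without KO day 1 replicate 1, 0 and 0 without KO day 1 replicate 2, 2 and 0 without KO day 2 replicate 1, 0 and 0 without KO day 2 replicate 2 and 1 and 1 with the transcript length correction. Stard4 rose by 0.81 ± 0.24, a call lost without KO day 1 replicate 2 (0.50) or KO day 2 replicate 2 (0.67) and with the transcript length correction (0.45). Sc5d rose by 0.50 ± 0.16, a call lost without KO day 1 replicate 2 (0.36) or KO day 2 replicate 2 (0.37) and with the transcript length correction (0.18) and with no expression filter (0.46) and in the fit of only the groups compared (0.51). In WT, cholesterol synthesis and uptake had 0 genes that rose and 5 that fell (median -0.34). Of the lysosome list, 7 of 20 tested members rose and 0 fell, with a median log2 fold change of 0.31. The share of all genes tested that rose was 22.9%. For lysosome, the number that rose and that fell was 4 and 0 without KO day 1 replicate 2 and 4 and 0 without KO day 2 replicate 1. Npc1, the cholesterol exporter, had 66.2 and 69 CPM at day 2, against 35.4 and 28.9 CPM at day 1 (log2 fold change 1.07 ± 0.16, adjusted p = 1.95e-04). Ctsh, a cathepsin, had 2.33 and 1.88 CPM at day 2, against 0.503 and 0.553 CPM at day 1 (log2 fold change 1.99 ± 0.48, adjusted p = 0.00512). Lamp2 rose by 0.85 ± 0.21, a call lost without KO day 1 replicate 2 (0.53). In WT, lysosome had 14 genes that rose and 1 that fell (median 0.60).

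Most ribosomal protein genes fell in KO at day 2, whereas most mitochondrially encoded genes were not called. Of the cytosolic ribosomal protein list, 0 of 22 tested members rose and 18 fell, with a median log2 fold change of -0.67. For cytosolic ribosomal proteins, the number that rose and that fell was 0 and 4 without KO day 1 replicate 2, 0 and 4 without KO day 2 replicate 2 and 0 and 6 with the transcript length correction. Rplp1 stood at 1652 and 1366 CPM in KO day 2 libraries, against 2509 and 3658 CPM in KO day 1 libraries (-1.03 ± 0.20), a call lost with the transcript length correction (-0.31). Rps24 had 1106 and 925 CPM at day 2, against 1817 and 2545 CPM at day 1 (log2 fold change -1.10 ± 0.22, adjusted p = 0.00160). Rps4x had 1622 and 1415 CPM at day 2, against 2283 and 3061 CPM at day 1 (log2 fold change -0.82 ± 0.18, adjusted p = 0.00261). Rpl27 fell (-0.93 ± 0.19), a call lost with the transcript length correction (-0.31). In each of these the KO day 1 libraries differed from each other, replicate 2 being the higher. Summed over the list the levels were 30236 and 26225 CPM at day 2, against 37014 and 53126 CPM at day 1, and WT libraries held 30638 and 33257 CPM at day 2, against 31686 and 27484 CPM at day 1. In WT, cytosolic ribosomal proteins had 0 genes that rose and 0 that fell (median 0.11). The length trend moved with this group, and its part in the result was not tested beyond the correction. Many ribosomal protein genes have processed pseudogenes with which reads could be shared. Of the mitochondrially encoded genes, 0 of 15 tested members rose and 6 fell, with a median log2 fold change of -0.51. For mitochondrially encoded, the number that rose and that fell was 0 and 2 without KO day 1 replicate 2, 0 and 2 without KO day 2 replicate 1, 0 and 2 without KO day 2 replicate 2 and 1 and 1 with the transcript length correction. Their share of all counts was 1.53% and 1.52% in KO day 2 libraries, against 1.9% and 1.46% in KO day 1 libraries, so the days overlapped. mt-Rnr1 had 135 and 99.2 CPM at day 2, against 232 and 335 CPM at day 1 (log2 fold change -1.27 ± 0.24, adjusted p = 0.00113). mt-Co2 fell (-0.93 ± 0.24), a call lost without KO day 1 replicate 2 (-0.80) and with the transcript length correction (-0.30). mt-Nd1 fell (-0.81 ± 0.25), a call lost without KO day 1 replicate 1 (-0.78), KO day 2 replicate 1 (-0.86) or KO day 2 replicate 2 (-0.85) and with the transcript length correction (-0.33). mt-Atp6 fell (-0.80 ± 0.27), a call lost without KO day 1 replicate 2 (-0.73), KO day 2 replicate 1 (-0.81) or KO day 2 replicate 2 (-0.89) and with the transcript length correction (-0.18). In WT, mitochondrially encoded had 0 genes that rose and 0 that fell (median -0.09).

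Among the largest rises outside these lists, Cyp1b1, a cytochrome P450 that also acts on retinoids, stood at 88.9 and 216 CPM in KO day 2 libraries, against 1.39 and 0.783 CPM in KO day 1 libraries (log2 fold change 7.10 ± 0.56, adjusted p = 1.03e-05). Fli1, an ETS factor, had 6.65 and 7.7 CPM at day 2, against 0.0773 and 0.046 CPM at day 1, which is 352 counts against 3 and a ratio of 114 with a 95% interval of 38.7 to 555. Fat3, an atypical cadherin, had 5.32 and 10.1 CPM at day 2, against 0.193 and 0.138 CPM at day 1 (log2 fold change 5.47 ± 0.60, adjusted p = 3.35e-05). Thsd7a, a thrombospondin-repeat protein, had 5.03 and 5.93 CPM at day 2, against 0.155 and 0.184 CPM at day 1 (log2 fold change 4.97 ± 0.50, adjusted p = 1.88e-05). Megf10, an engulfment receptor, had 2.87 and 7.14 CPM at day 2, against 0.193 and 0.046 CPM at day 1 (log2 fold change 5.25 ± 0.91, adjusted p = 9.53e-04). These 5 genes were near or below 1 CPM in both day 1 libraries and above 2 CPM in both day 2 libraries. All 5 also rose in WT, by 5.60, 4.16, 4.26, 3.38 and 4.12 on the log2 scale.

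Among the largest falls, Gjb1, a connexin gene, stood at 2.29 and 1.96 CPM in KO day 2 libraries, against 40.7 and 32.5 CPM in KO day 1 libraries (log2 fold change -4.10 ± 0.35, adjusted p = 7.01e-06). Lrrc2 had 3.03 and 1.76 CPM at day 2, against 41.7 and 39.7 CPM at day 1 (log2 fold change -4.08 ± 0.32, adjusted p = 5.07e-06). Ak7, an adenylate kinase, had 3.99 and 3.53 CPM at day 2, against 36.5 and 47.6 CPM at day 1 (log2 fold change -3.48 ± 0.22, adjusted p = 3.24e-06). Myo1f, an unconventional myosin, had 5.53 and 3.49 CPM at day 2, against 40.7 and 48.7 CPM at day 1 (log2 fold change -3.31 ± 0.42, adjusted p = 1.01e-04). Lgals3, which encodes galectin 3, had 3.95 and 2.73 CPM at day 2, against 28.3 and 39.1 CPM at day 1 (log2 fold change -3.34 ± 0.36, adjusted p = 2.81e-05). Srms, a SRC-like kinase, had 1.7 and 1.6 CPM at day 2, against 14.4 and 19.2 CPM at day 1 (log2 fold change -3.34 ± 0.36, adjusted p = 2.81e-05). Each of these 6 was several-fold lower in both day 2 libraries. Mir124a-1hg, a microRNA host gene, had 0.291 and 0.20 CPM at day 2, against 5.57 and 7.0 CPM at day 1 (log2 fold change -4.64 ± 0.82, adjusted p = 8.01e-04). Gpx2, a glutathione peroxidase, had 1.25 and 0.802 CPM at day 2, against 13.1 and 15.2 CPM at day 1 (log2 fold change -3.78 ± 0.34, adjusted p = 8.92e-06). Grm2, a glutamate receptor, fell (-3.69 ± 0.39), as did Mt4, a metallothionein (-3.44 ± 0.48), and Fbp1, which encodes fructose bisphosphatase (-3.39 ± 0.38). Gjb1 changed by -4.14 and Srms by -4.37 in WT. The other genes named here also fell in WT, each by less than in KO. Lrrc2 changed there by -3.54, Ak7 by -2.81, Myo1f by -2.75 and Lgals3 by -1.71. For Mir124a-1hg the WT change was -2.87, for Gpx2 -2.19, for Grm2 -2.44, for Mt4 -1.70 and for Fbp1 -2.83.

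The day 1 to 2 change differed between genotypes, by the interaction term, for 21 of 17694 genes (0.119%). In KO the change was the higher for 7 of them (0.0396%) and the lower for 14 (0.0791%). The number was 3771 at an unadjusted p below 0.05 (21.3%). Irs2, the insulin receptor substrate, stood at 38.4 and 62 CPM in KO day 2 libraries, against 3.32 and 1.66 CPM in KO day 1 libraries, and WT cells held 27.1 and 21.7 CPM at day 2, against 5.81 and 9.59 CPM at day 1 (difference 2.65 ± 0.46, adjusted p = 0.0462). Mpdz, a multi-PDZ scaffold of tight junctions, had 43.2 and 56.1 CPM at day 2, against 9.36 and 6.95 CPM at day 1 in KO and 33.4 and 33.8 CPM at day 2, against 19.2 and 22.8 CPM at day 1 in WT (difference 1.93 ± 0.28, adjusted p = 0.0268). Epha2, an ephrin receptor, had 529 and 581 CPM at day 2, against 199 and 213 CPM at day 1 in KO and 318 and 311 CPM at day 2, against 379 and 419 CPM at day 1 in WT (difference 1.77 ± 0.25, adjusted p = 0.0268). It rose in KO (1.43 ± 0.18, adjusted p = 9.06e-05) and was not called in WT (-0.35 ± 0.18, adjusted p = 0.188). Trim56, a ubiquitin ligase of innate immunity, had a difference of 1.65 ± 0.26, adjusted p = 0.0442, Bahcc1, a chromatin reader, of 1.49 ± 0.26, adjusted p = 0.0462 and Adcy1, an adenylate cyclase, of 1.37 ± 0.24, adjusted p = 0.0463. The KO changes of Bahcc1 and Adcy1 were 1.12 ± 0.19, a call lost with the transcript length correction (0.32), and 0.92 ± 0.17, a call lost with the transcript length correction (0.04). At day 1 each of Irs2, Mpdz, Epha2, Trim56 and Adcy1 stood lower in both KO libraries than in both WT libraries. The 21 calls depended on single libraries. There were 0 when KO day 1 replicate 2, either KO day 2 library, either WT day 1 library or WT day 2 replicate 2 was left out. There were 26 without WT day 2 replicate 1 and 2240 without KO day 1 replicate 1. There were also 0 with the replicate block and 0 with the transcript length correction, and 713 by DESeq2.

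Lower changes in KO were found among genes active in the 2-cell embryo, which a small share of stem cells expresses. Zscan4c stood at 80.8 and 102 CPM in KO day 2 libraries, against 39.7 and 49.9 CPM in KO day 1 libraries, and WT cells held 105 and 142 CPM at day 2, against 13.3 and 19.4 CPM at day 1 (difference -1.89 ± 0.31, adjusted p = 0.0445). Tcstv3 had 5.53 and 5.73 CPM at day 2, against 2.78 and 5.16 CPM at day 1 in KO and 6.14 and 11.1 CPM at day 2, against 0.361 and 0.673 CPM at day 1 in WT (difference -3.54 ± 0.60, adjusted p = 0.0448). Tdpoz4 had 3.49 and 3.93 CPM at day 2, against 2.05 and 1.89 CPM at day 1 in KO and 6.03 and 11 CPM at day 2, against 0.481 and 0.589 CPM at day 1 in WT (difference -3.07 ± 0.46, adjusted p = 0.0282). KO libraries of day 1 stood above WT libraries of day 1 in these genes, whereas at day 2 they stood below. The KO rise of Tdpoz4 was a call lost with any 1 of the 4 libraries left out (0.79 to 0.95). Of the 2-cell-like list, 9 of 15 tested members rose and 2 fell, with a median log2 fold change of 1.04. For 2-cell-like, the number that rose and that fell was 6 and 1 without KO day 2 replicate 2. Zscan4d and Zscan4f rose by 1.38 ± 0.25 and 1.75 ± 0.24, Usp17le, a deubiquitinase gene, by 1.49 ± 0.30 and Zfp352 by 1.88 ± 0.38. In WT, 2-cell-like had 13 genes that rose and 0 that fell (median 2.98), and 2 of its 15 genes were called in the genotype difference. Summed levels were 562 and 701 CPM in KO day 2 against 414 and 454 CPM in KO day 1 libraries. WT libraries summed to 823 and 1098 CPM on day 2, against 259 and 312 CPM on day 1. Members of the Zscan4, Usp17l and Tcstv families in this list are near-identical copies, and their counts are uncertain. Serpinb6c, a serpin gene outside the list, had 1.7 and 1.32 CPM at day 2, against 4.64 and 4.19 CPM at day 1 in KO (-1.54 ± 0.25, adjusted p = 4.17e-04) and 5.38 and 5.97 CPM at day 2, against 3.08 and 2.52 CPM at day 1 in WT (1.01 ± 0.24, adjusted p = 0.00818), a difference of -2.56 ± 0.35, adjusted p = 0.0268 between changes in opposite directions.

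**Figure D5:**
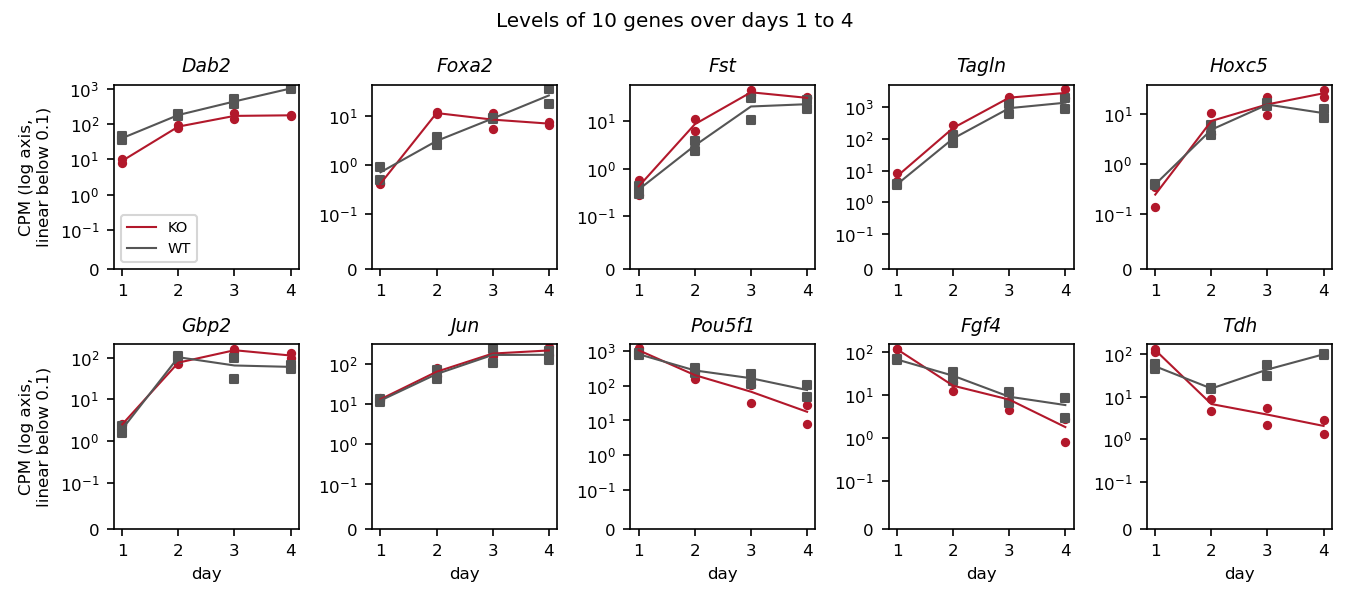
CPM (vertical axis, log scale above 0.1 and linear below) of 10 genes on days 1 to 4 in KO (red circles) and WT (grey squares), each point a library and each line the mean of 2. Most of the KO change of Foxa2 falls between days 1 and 2, and Tdh keeps falling in KO after day 2 while it recovers in WT.

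Over the rest of the course some of these genes went on and others did not. Foxa2 was at 0.425 and 0.414 CPM in KO cells at day 1, 10.9 and 11.7 at day 2, 11.3 and 5.33 at day 3 and 7.43 and 6.37 at day 4. Dab2 reached 203 and 139.6 CPM at day 3 and 172 and 184 at day 4, and Tagln 1862 and 2092 CPM at day 3 and 3626 and 1939 at day 4. Pou5f1 stood at 102 and 31.5 CPM at day 3 and 7.81 and 27.7 at day 4. Epha2 stood at 280.4 and 210.0 CPM at day 3 and 208 and 143 at day 4, below its day 2 level of 529 and 581 CPM in every library. The day 2 level of Epha2 was thus the highest of the 4 days in KO, while Dab2 and Tagln were higher at day 3 than at day 2.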

How the data were processed

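PolyA RNA was sequenced after TruSeq library preparation, per the labels' protocols. The authors deposited whole-number counts per gene and library. Per the submitters' processing notes, the tools were STAR 2.5.0c and featureCounts 1.4.5-p1 and the build was mm10, and the strand setting is not given in the sources used here. The members and the 43 gene lists, some of which overlap, were chosen with earlier results of these data known.

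The 16 libraries of days 1 to 4 in 8 groups of 2 were fitted together in edgeR 4.0.16 (R 4.3.3, limma 3.58.1) after filterByExpr and TMM scaling, with the robust quasi-likelihood test. Contrasts were day 2 over day 1 in KO, the same in WT, and their difference. P-values were adjusted by Benjamini-Hochberg over 17694 genes and called below 0.05. Standard errors were derived from the F statistic, and CPM are scaled to the TMM-adjusted library size. Named genes were Ago2 and 10 endoderm and pluripotency factors, then in each direction the 15 largest called KO changes with at least 5 CPM in the higher group and no overlap between days. The up to 8 largest called genotype differences in each direction and, from every list, the 4 tested genes of lowest p were added. Members named beyond these, such as Lrpap1, Isg15, Lefty1 and others not called, were picked after their values were seen. Predicted and clone-named genes entered the counts only, and some genes that the rule picked are not reported here. Counting intervals are at 95% with a floor of 3 counts and cover counting error only. Libraries of the other 8 samples were not used here.

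Replicates of a group differed by more than counting noise, with chi-square values over their degrees of freedom between 12.6 and 47.4. On simulated counts for KO day 2 against KO day 1 over 17276 genes, 53 of 100 genes changed 2-fold and 94 of 100 changed 4-fold were recovered, with 7 false calls. The simulation gave each unchanged gene the same mean level in all 16 libraries, with no trend by transcript length. Its false calls therefore do not measure those of the real step. Alternatives were DESeq2 1.42.0, its size factors, no filter, a replicate block, a fit of the compared groups alone and leaving out each library. A crossed block and a transcript length correction were chosen after seeing the data. RefSeq promoters matched by symbol, and 29522 of 30590 gene symbols matched the annotation. For the motif shares, a list gene was counted if any promoter of its symbol held the motif. The share over all promoters counted each promoter, so the units of these shares differ.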

Additional observations from a re-analysis of the deposited data

Results flagged for a closer look

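The genotype difference was called for 21 genes. For 10 named genes among them the day 1 to 2 change differed between KO and WT by the interaction term of the edgeR quasi-likelihood test. The difference in log2 fold change, KO minus WT, was 2.65 for Irs2, 1.93 for Mpdz, 1.77 for Epha2, 1.65 for Trim56, 1.49 for Bahcc1 and 1.37 for Adcy1. It was -3.54 for Tcstv3, -3.07 for Tdpoz4, -2.56 for Serpinb6c and -1.89 for Zscan4c. All 10 calls were lost with the replicate block, with the transcript length correction and without any of KO day 1 replicate 2, KO day 2 replicate 1, KO day 2 replicate 2, WT day 1 replicate 1, WT day 1 replicate 2 or WT day 2 replicate 2. Without WT day 2 replicate 1 there were 6 calls kept and 4 lost.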

How the results depend on the processing

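All 3 comparisons were recomputed under each alternative, and the cause of a moved count was not tested. Leaving out 1 library gave 3802 to 7351 calls in KO (2070 to 3533 higher, 1732 to 3818 lower) and 1259 to 2292 in WT (930 to 1548 higher, 329 to 754 lower). The genotype difference gave 0 to 2240 calls (0 to 1023 higher, 0 to 1217 lower). The fit of only the groups compared gave 6351 calls in WT (3446 higher, 2905 lower) and 133 for the genotype difference (56 higher, 77 lower). For that difference DESeq2 size factors gave 32 (8 higher, 24 lower), DESeq2's Wald test 713 (399 and 314) and no expression filter 1603 (939 and 664). The transcript length correction gave 0 (0 higher, 0 lower) and turned the sign of Ago2 (-0.07) and Tnrc6c (-0.07). Itgam, not called, lay between -0.48 and 0.43 with 1 library left out.

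The replicate numbers did not pair the samples: the correlation of the difference between replicates 1 and 2 at day 1 with that at day 2 was -0.182 in KO and -0.128 in WT. The replicate block gave 6876 calls in KO, 3069 in WT and 0 for the genotype difference (0 higher, 0 lower). With the pairing crossed, chosen after seeing the data, there were 7924 calls in KO, 4067 in WT and 1043 for the genotype difference (695 higher, 348 lower), and Itgam changed by 0.00.

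Depth of 10601574 to 27147835 counts per library limits the genes near 0, and 2 libraries per group limit the estimate of spread.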
